A study of Mus musculus with 3 samples.

Results

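The cells described here are those that the authors' own clustering placed in clusters 1 and 4 and that came from brains bearing metastases. They numbered 3440 of the 12421 cells in the whole series. Cluster 1 held 1192 cells in metastasis 1 and 1321 in metastasis 2, and cluster 4 held 539 and 388. Cluster 0 of the same brains, with 3152 cells, was the population they were set against. The members were chosen by cluster number and brain, and the clusters had been made from RNA. Every gene difference between clusters is therefore a description and carries no p-value.

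The brains came from female C57BL/6 mice aged 2 to 3 months. E0771, a mouse mammary carcinoma line, was injected into the carotid artery, and brains with established metastases were taken about 2 weeks later. Naive brains without metastases were the comparison group of the study, and 2 brains of each kind are in the files. Per the labels, 1 brain hemisphere was used after PBS perfusion, papain dissociated the tissue, and Percoll served to enrich mononuclear cells. The suspensions received 6 surface antibodies and a hashing antibody per brain, and all were run as a single pool on the 10x 3' v2 assay. The design text speaks of 6 pooled samples, and 4 hashing antibodies were analysed here. The 4 brains are told apart by hashing tags alone, so a value per brain shares the pool, the library and the sequencing run with the others. P-values for antibody tags rest on the 2 brains with metastases. Those for cell barcodes come from a fit with brain as a block. They measure how far the within-brain differences vary over the 4 suspensions, and leave out the spread between suspensions.

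In this assay each droplet carries a bead whose primers hold a cell barcode of 16 bases, a random molecular tag and a stretch of T that pairs with the poly(A) tail of mRNA. A unique molecular identifier (UMI) count is the number of distinct molecules read for a gene under a given barcode. The barcode is a synthetic label and carries no information from the mouse. Levels below are in CPM, the UMIs of a gene per 1000000 UMIs summed over the cells of a cluster in a brain. A log2 difference is that of CPM plus 5.

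The barcodes of the deepest cells are printed first, because their base composition differed between the clusters. Capitals mark G and C. For each cluster and brain the 2 cells with the most UMIs are shown.
Cluster 1, metastasis 1, 36537 UMIs, 6 G or C: tCattaCaGCttatCG
Cluster 1, metastasis 1, 31104 UMIs, 6 G or C: GaCtaaCtCttatCtG
Cluster 1, metastasis 2, 34270 UMIs, 6 G or C: tCattaCCatatGCtG
Cluster 1, metastasis 2, 34243 UMIs, 6 G or C: tatCaGGtCaaaCaaG
Cluster 4, metastasis 1, 28640 UMIs, 7 G or C: CtaCCCaaGGaattaC
Cluster 4, metastasis 1, 27612 UMIs, 6 G or C: GatCGtaGtataGGta
Cluster 4, metastasis 2, 31076 UMIs, 6 G or C: aCCGtaaCaatGaatG
Cluster 4, metastasis 2, 29783 UMIs, 6 G or C: CGaatGtaGaGtaCat
Cluster 0, metastasis 1, 36830 UMIs, 8 G or C: aCtttCaGtCtGCGGt
Cluster 0, metastasis 1, 33668 UMIs, 8 G or C: CtaGaGttCttCGGtC
Cluster 0, metastasis 2, 48398 UMIs, 7 G or C: CCtttCtGtaGCttGt
Cluster 0, metastasis 2, 45190 UMIs, 9 G or C: aaCtCCCaGaCCaCGa
The 8 barcodes of clusters 1 and 4 held 6 or 7 G or C bases, and the 4 of cluster 0 held 7 to 9. The shares over all cells are given further on.

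Cells of clusters 1 and 4 were shallow. The median was 6165.5 UMIs per cell in cluster 1 of metastasis 1 and 6137 in metastasis 2. In cluster 4 it was 5585 and 5911, and in cluster 0 it was 13259.5 and 15283. Clusters 1 and 4 together thus had 45.5% and 39.9% of the median depth of cluster 0, and 63.7% and 59.5% of its median number of genes. Mean hashing tags per cell were 68.1% and 66.3% of those in cluster 0. The median mitochondrial share was 1.26% and 1.11% in clusters 1 and 4, and 1.15% and 0.983% in cluster 0. The distributions of depth overlapped: 291 and 289 cells of clusters 1 and 4 held over 12000 UMIs, as did 1030 and 1099 cells of cluster 0.

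**Figure D1:**
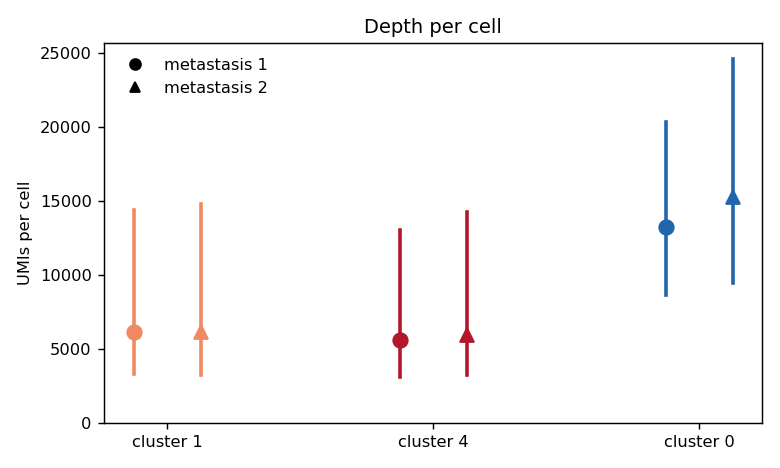
UMIs per cell (y axis) in clusters 1, 4 and 0 of the brains with metastases. Symbols are medians and bars run from the 10th to the 90th percentile of cells. The medians of clusters 1 and 4 lie between 5585 and 6165.5, below the 13259.5 and 15283 of cluster 0.

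The working name of these cells is tumour-like, and it was checked against markers. Of 15 carcinoma genes, 1 reached 20 CPM: Krt8, a keratin of simple epithelia, at 410 and 628 CPM in clusters 1 and 4 and 432 and 656 CPM in cluster 0. Krt18, its usual partner, was at 3.29 and 0.755 CPM in clusters 1 and 4 and 2.97 and 1.10 CPM in cluster 0. Vim, an intermediate filament of mesenchymal cells, was at 1506 and 1720 CPM in cluster 1, 1261 and 1360 CPM in cluster 4, and 1517 and 1706 CPM in cluster 0. A single epithelial keratin is too few for a name from markers, so the cells are called clusters 1 and 4 below. CD45 antibody tags, which mark leukocytes, averaged 1.64 and 1.89 per cell in clusters 1 and 4, against 204 and 202 in cluster 2, where these tags were high.

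Markers of other cell types were present at levels that differed between lists and brains. Over 8 general myeloid genes the summed level was 88.9 and 89.2 CPM in clusters 1 and 4 and 75.5 and 72.3 CPM in cluster 0. Over 8 microglial genes it was 18.5 and 19.4 CPM against 17.9 and 23.1 CPM. The choroid plexus list of 8 genes was highest, at 849 and 745 CPM in clusters 1 and 4 and 724 and 623 CPM in cluster 0. Its top gene, Ttr, which encodes the secreted thyroxine carrier transthyretin, was at 670 and 568 CPM in cluster 1, 763 and 678 CPM in cluster 4, and 578 and 490 CPM in cluster 0. The erythroid list of 5 genes was at 82.4 and 4.66 CPM in cluster 1, 1.05 and 6.82 CPM in cluster 4, and 13.7 and 4.11 CPM in cluster 0, and was thus high in cluster 1 of metastasis 1. The oligodendrocyte list of 6 genes was at 11.3 and 4.76 CPM in clusters 1 and 4 and 3.76 and 3.34 CPM in cluster 0. The endothelial list of 8 genes was at 10.0 and 19.7 CPM against 8.21 and 10.9 CPM. Neuronal genes were at or near 0, with Snap25, Syt1 and Rbfox3 at 0 UMIs in clusters 1 and 4. The part of these levels in the differences described below was not tested.

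Clusters 1 and 4 differed from cluster 0 in 1 direction. Of 5116 genes at 20 CPM or more on either side, 98 (1.92%) were at least 1.5-fold higher in clusters 1 and 4 in both brains, and 0 were at least 1.5-fold lower. The median log2 difference over all 5116 genes was -0.02, and 90% of genes lay between -0.18 and 0.22. A higher share of UMIs of 2-fold or more in both brains was seen for 60 genes. The 98 genes together held 2.87% and 2.89% of all UMIs in clusters 1 and 4 and 0.859% and 0.889% in cluster 0. Since the clusters were made from such differences, their number is no evidence for a separate kind of cell.

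**Figure D2:**
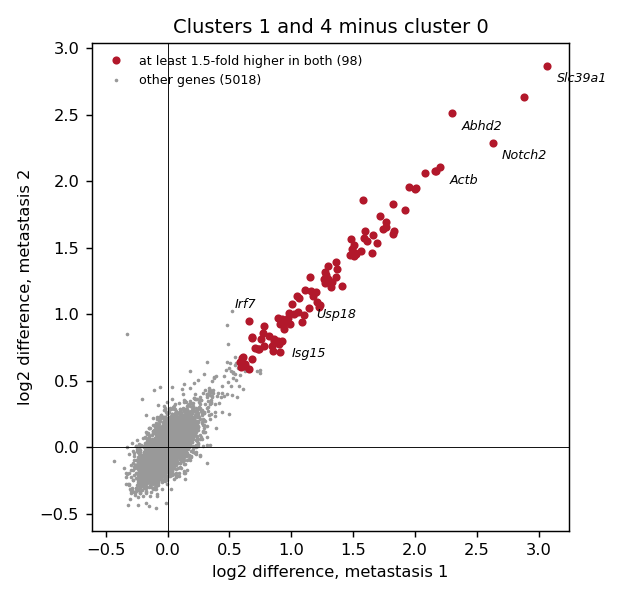
Log2 difference in CPM plus 5, clusters 1 and 4 minus cluster 0, in metastasis 1 (x axis) and metastasis 2 (y axis), for 5116 genes. The 98 genes at least 1.5-fold higher in both brains form an arm along the diagonal, up to 3.07 and 2.87 for Slc39a1, and there is no arm in the other direction.

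The 5 genes that mark these clusters encode proteins of different kinds. Slc39a1, a zinc importer of the plasma membrane, was at 576 and 501 CPM in clusters 1 and 4 and at 64.1 and 64.2 CPM in cluster 0. Its log2 difference was 2.97 ± 0.14 (SD, n = 2 brains), the largest of the 98. Rpgrip1, a protein of the photoreceptor connecting cilium, was at 242 and 210 CPM against 28.5 and 29.7 CPM in cluster 0 (log2 difference 2.76 ± 0.17). Neither gene's values overlapped between the populations, which a gene that marks the clusters can be counted on to show. The brains differed little.

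Supt16, a subunit of the histone chaperone FACT, was at 254 and 226 CPM in clusters 1 and 4 and at 52.5 and 49.7 CPM in cluster 0 (log2 difference 2.13 ± 0.07). Notch2, a receptor for membrane-bound ligands, was at 231 and 207 CPM against 33.2 and 38.3 CPM in cluster 0 (2.46 ± 0.24). Actb, which encodes cytoplasmic beta-actin, was at 16211 and 16811 CPM against 3511 and 3902 CPM (2.16 ± 0.07). For these 3 genes too, both brains of clusters 1 and 4 lay above both of cluster 0, and the same limit holds.

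These differences were seen per cell as well as per UMI, although the cells were shallower. A cell of clusters 1 and 4 held on average 4.35 and 3.88 UMIs of Slc39a1, against 0.895 and 1.04 in cluster 0. For Actb the averages were 122 and 130 UMIs against 49.0 and 63.3. Of the 98 genes, 68 had more UMIs per cell in clusters 1 and 4 in both brains and 14 had fewer. The 98 had been picked for a higher share of UMIs, and the same count over all genes was not taken.

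The markers were not restricted to clusters 1 and 4 within the series. The summed level of Slc39a1, Rpgrip1, Supt16 and Notch2 was 1098 and 1017 CPM in cluster 1, 1801 and 1592 CPM in cluster 4, and 178 and 182 CPM in cluster 0. In cluster 2, where CD45 tags were high, it was 693 and 600 CPM, and in cluster 3 217 and 172 CPM. In cluster 5 it was 918 and 749 CPM. Clusters 0 and 3 were thus the lowest of clusters 0 to 5 on this measure, and cluster 5 was the nearest of these to cluster 1. Actb was higher still in cluster 2, at 34124 and 28646 CPM.

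**Figure D3:**
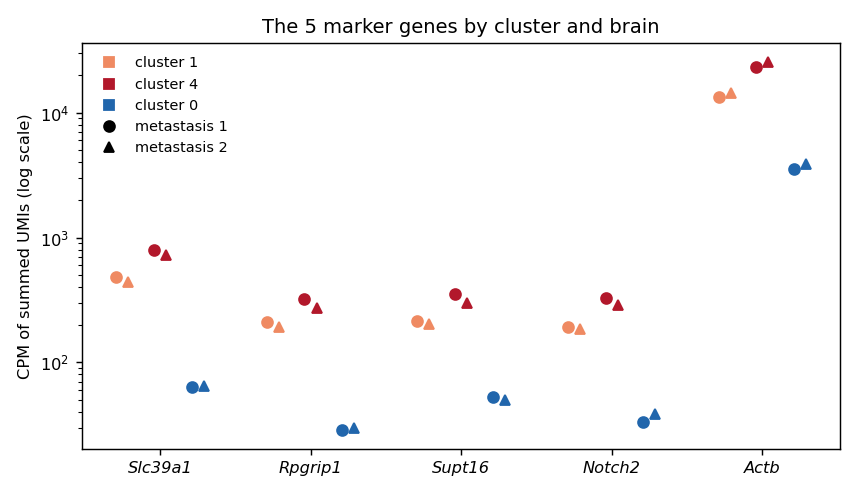
CPM of summed UMIs (y axis, log scale) of the 5 marker genes in clusters 1, 4 and 0, with a symbol for each brain. For every gene cluster 4 is highest, cluster 1 intermediate and cluster 0 lowest, in both brains; Slc39a1 runs from 436 to 796 in clusters 1 and 4 and is 64.1 and 64.2 in cluster 0.

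Their genes lie apart from each other with an exception. In RefSeq's table of the GRCm38.p6 assembly, 96 of the 98 genes were found, on 19 chromosomes, with no chromosome holding more than 10. Slc39a1 is at chr3:90248190-90253613, Notch2 at chr3:98013538-98150367 and Actb at chr5:142903115-142907976. Rpgrip1, on the plus strand at chr14:52104241-52161339, and Supt16, on the minus strand at chr14:52160419-52197239, share 921 bases at their 3' ends. Slc24a5 and Myef2, both among the 98, overlap in the same way over 7703 bases of chromosome 2. Whether counting used strand is not given in the sources used here. How reads in the shared bases were counted was not tested, so such a pair may not be independent members.

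Beyond the markers, the largest differences were in genes of many functions. Abhd2, a serine hydrolase, was at 89.4 and 118 CPM in clusters 1 and 4 and at 14.1 and 16.5 CPM in cluster 0 (log2 difference 2.41 ± 0.15). Spry2, an inhibitor of receptor tyrosine kinase signalling, was at 72.1 and 71.4 CPM against 12.2 and 13.1 CPM in cluster 0 (2.12 ± 0.06). Insig1, which retains the sterol sensor of cholesterol synthesis in the endoplasmic reticulum, was at 167 and 132 CPM against 35.5 and 27.9 CPM (2.07 ± 0.01). These 3 genes were each over 4-fold higher, and no value of clusters 1 and 4 fell within the range of cluster 0. That largely follows from their being picked for the largest differences.

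The remaining genes of the 12 with the largest differences were D17H6S53E, Sept10, the transcription factor Nfia and Ogdhl, with log2 differences of 1.98, 1.97, 1.95 and 1.85. Alkbh5, an RNA demethylase, was at 205 CPM in both brains in clusters 1 and 4 and at 58.8 and 57.8 CPM in cluster 0. At the lower end, the genes just inside the limit of 1.5-fold were Set, Gm47283 and Ano6, with smaller-brain log2 differences of 0.60, 0.59 and 0.59. Those just outside it were Wrb, Nsd3 and Furin, at 0.58, 0.57 and 0.57. The list therefore has no natural edge at its lower end.

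Lists of genes related to the markers were read beside the 1.92% of all tested genes that were higher, a share at which a short list holds few or none. Of 24 actin cytoskeleton genes that passed the level filter, Actb alone was among the 98. Actg1, which encodes the other cytoplasmic actin, was at 1663 and 1771 CPM in clusters 1 and 4 and at 1821 and 1941 CPM in cluster 0. Of 10 Notch pathway genes 1 was higher (Notch2), of 9 zinc transport and metallothionein genes 1 was higher (Slc39a1), and of 15 genes of cholesterol synthesis 1 was higher (Insig1). The actin, Notch and zinc lists had been picked for the marker they hold, so these counts show nothing particular to the pathways. The median log2 difference in the first brain and the second was -0.05 and 0.07 for the Notch list and -0.05 and 0.06 for the zinc list. Of 15 histone chaperones, 2 were higher, Supt16 and Set. This list too holds a marker, Supt16, and Set was just inside the limit. The median log2 difference of the list was 0.004, so its count shows nothing particular to histone chaperones.

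Lists of growth and housekeeping genes held no gene past the limit, as a list of their size may at a background of 1.92%. Of 30 S-phase genes and 35 genes of G2 and mitosis, 0 were at least 1.5-fold different, with median log2 differences over the passing genes of -0.02 and -0.12. Birc5, an inhibitor of apoptosis made in mitosis, was at 429 and 386 CPM in cluster 1, 458 and 406 CPM in cluster 4, and 462 and 446 CPM in cluster 0. Ribosomal proteins (0 of 77), nuclear-encoded respiratory subunits (0 of 24), glycolysis and hypoxia genes (0 of 20), endoplasmic reticulum stress genes (0 of 11), chaperones (0 of 12), p53 targets (0 of 6) and MHC class I genes (0 of 12) had none past 1.5-fold either. Gapdh, a glycolytic enzyme, was at 3408 and 3999 CPM in cluster 1, 3203 and 3860 CPM in cluster 4, and 3521 and 4237 CPM in cluster 0.

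RNA classes that follow cell integrity showed small shifts. Mitochondrially encoded genes had a median log2 difference of 0.16, above 0 in both brains for 11 of 12 genes. In cells of the shared depth range this median was -0.05. Set singly against cluster 0, the median over all cells was 0.08 in cluster 1 and 0.42 in cluster 4. In cluster 1 against cluster 4 it was -0.33, with 11 of 12 genes below 0 in both brains. Of 4 nuclear-retained RNAs, Neat1, the scaffold of paraspeckles, was higher at 1.5-fold (log2 difference 0.63 ± 0.05), and Malat1 had a log2 difference of 0.18 ± 0.09.

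The differences were recomputed with depth made more alike. With every cell thinned to 2000 UMIs (cells below that left out), 92 of the 98 genes were still at least 1.5-fold higher in both brains. Among cells of the shared depth range 78 were, and among cells over 12000 UMIs 77 were. The direction was kept in both brains by 98, 97 and 98 genes. Thinning leaves the expected share of a gene in each cell as it was, so it cannot show the part of depth. The 98 genes were picked from these same cells, so most could be counted on to keep their direction. Slc39a1 had a log2 difference of 3.26 after thinning, 2.85 in the shared range and 2.63 over 12000 UMIs, beside 2.97 in all cells. For Actb the values were 2.25, 2.23 and 2.02, beside 2.16. Cells of like depth were unlike in their barcodes. Over 12000 UMIs, barcodes with at most 7 G or C made up 92.3% and 87.3% of cluster 1. In cluster 4 they made up 94.2% and 88.5%, and in cluster 0 21.5% and 24.6%. The setting of over 12000 UMIs therefore does not compare the clusters with depth alone made alike.

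Clusters 1 and 4 differed from cluster 0 in their barcodes. The mean number of G and C among the 16 bases was 7.69 and 7.84 in cluster 1, 7.42 and 7.32 in cluster 4, and 8.50 and 8.44 in cluster 0. Barcodes with at most 7 G or C, called GC-poor here, made up 51.5% (95% exact binomial interval 49.1 to 53.9) and 47.6% (45.2 to 50.03) of clusters 1 and 4. In cluster 0 they made up 20.8% (18.9 to 22.8) and 22.4% (20.3 to 24.6). In clusters 2 and 6 to 12 together they made up 32.7% and 36.4% in the brains with metastases and 34.9% and 37.0% in naive brains. These intervals cover counting error only. The bases of a barcode played no part in the clustering as far as the files show, and this comparison was chosen after the data were seen.

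The lower G and C content was spread along the barcode. At 15 of the 16 positions the share of G or C was lower in clusters 1 and 4 than in cluster 0 in both brains. The exception was base 9, whose identity is fixed by base 8 in all 12421 barcodes.

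Within clusters 1 and 4 the depth of a cell went with its barcode. Among cells over 12000 UMIs, GC-rich barcodes (at least 9 G or C) were 7 of 222 and 10 of 228 cells in cluster 1, which is 3.15% (1.28 to 6.39) and 4.39% (2.12 to 7.92). In cluster 4 they were 1 of 69 and 2 of 61 cells. In cluster 0 at the same depth they were 485 of 1030 and 511 of 1099 cells, 47.1% (44.0 to 50.2) and 46.5% (43.5 to 49.5). Up to 6000 UMIs the share in cluster 1 was 40.1% and 45.0%.

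Cells with the fewest G and C in cluster 1 were the deepest, with medians of 11335.5 and 11192.5 UMIs at 6 or fewer. At 10 or more the medians were 5322 and 5267. Cluster 0 spanned medians of 13136.5 to 14809.5 UMIs in metastasis 1 and 14521 to 16373.5 in metastasis 2 over the same bins of barcode composition.

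**Figure D4:**
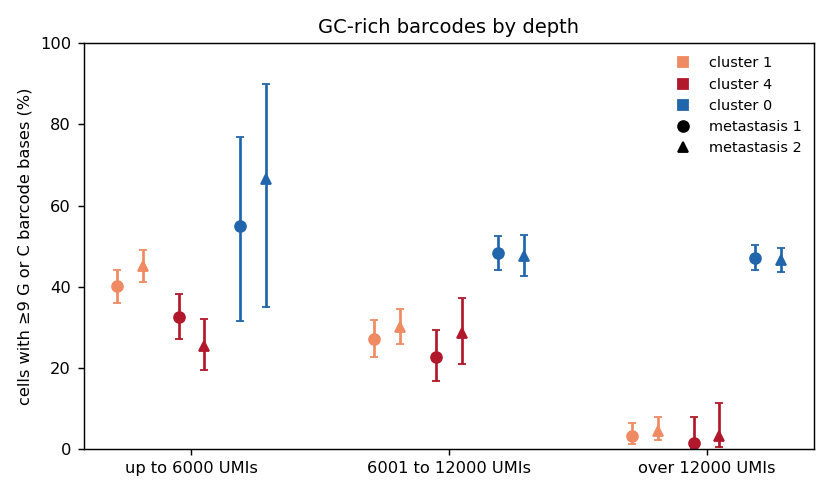
Share of cells whose barcode holds at least 9 G or C (y axis, percent) in 3 ranges of UMIs per cell (x axis), for clusters 1, 4 and 0 in each brain. Bars are 95% exact binomial intervals. Over 12000 UMIs the shares are 1.45% to 4.39% in clusters 1 and 4 and 46.5% and 47.1% in cluster 0.

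The level of the marker genes also went with the barcode, in cells outside clusters 1 and 4. In cluster 0, Slc39a1 was at 136 and 133 CPM in cells with GC-poor barcodes and at 33.2 and 30.7 CPM in cells with GC-rich barcodes, log2 differences of 1.88 and 1.95. Actb in cluster 0 was at 5542 and 6348 CPM against 2582 and 2805 CPM. In cluster 3 Slc39a1 was at 191 and 162 CPM in GC-poor and 44.5 and 31.4 CPM in GC-rich barcodes.

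Within clusters 1 and 4 the same split gave smaller differences. Slc39a1 in cluster 1 was at 440 and 402 CPM in GC-poor and 603 and 498 CPM in GC-rich barcodes. In cluster 4 it was at 763 and 726 CPM against 855 and 769 CPM. Actb in cluster 4 was at 22889 and 25188 CPM against 23508 and 27125 CPM, and in cluster 1 its brains went opposite ways. Supt16 was lower in GC-poor barcodes in both clusters, and Rpgrip1 was lower in cluster 1 and higher in cluster 4. Notch2 was higher in GC-poor barcodes in both clusters, at 201 and 194 CPM against 169 and 168 CPM in cluster 1. The difference between clusters in this relation was not tested.

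**Figure D5:**
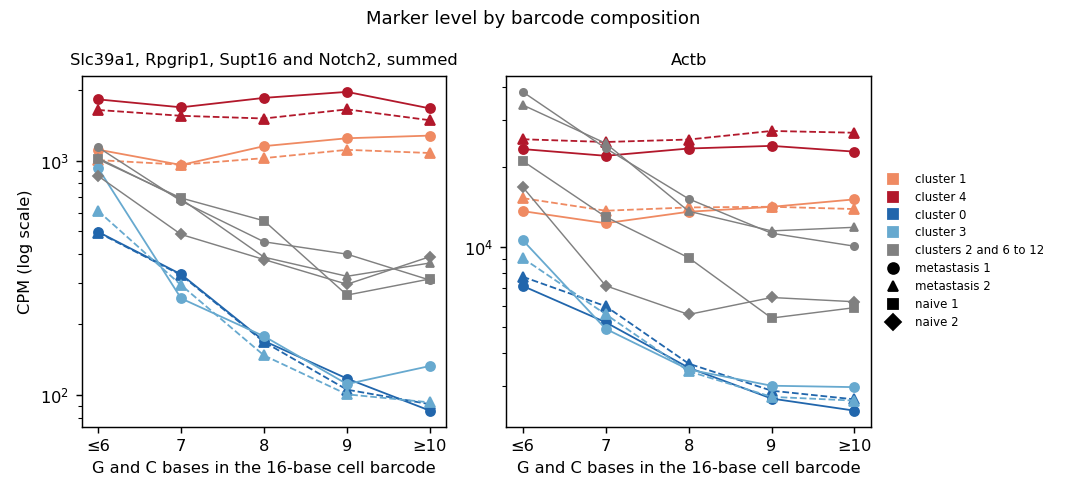
CPM (y axis, log scale) of 4 markers summed (left) and of Actb (right) against the number of G and C bases in the cell barcode (x axis), by cluster and brain. The 4-marker level is nearly flat in clusters 1 and 4, between 958 and 1964, while in cluster 0 it is 496 and 493 at 6 or fewer G or C and 85.8 and 91.3 at 10 or more, and it is lower at the GC-rich end in cluster 3 and in the clusters of other cells too.

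That relation was tested in cells outside clusters 0, 1, 3, 4 and 5, so that it rests on other cells than those that gave the 98 genes. UMIs were summed over cells with GC-poor and with GC-rich barcodes in each of the 4 brains, and edgeR's quasi-likelihood test was run with brain as a block. Of 7797 genes, 77 (0.988%) were higher with GC-poor barcodes and 2 (0.0257%) were lower at a Benjamini-Hochberg adjusted p under 0.05. Of the 98 genes, 95 passed the count filter, and 59 of these were higher and 0 were lower. The shared genes were thus 59 of 95 in one list and 59 of 77 in the other. The median log2 difference was 0.87 over the 95 genes and -0.01 over all 7797, and 94 of the 95 were above 0. Cluster 2 gave 718 of 1414 and 1063 of 1814 of these cells in the brains with metastases, and without it 67 of 6462 genes were higher, 53 of them among the 98. The clusters were pooled in the sums, and the fit held no term for cluster. Marker levels differed between them: in metastasis 1, Actb was at 34124 CPM in cluster 2 and 2895 CPM in cluster 9. Whether GC-poor and GC-rich barcodes held the same mix of clusters was not tested, nor was the part of that mix in these counts.

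All 5 markers rose with GC-poor barcodes in these other cells. Slc39a1 was at 367 and 353 CPM in the brains with metastases and 252 and 208 CPM in the naive brains with GC-poor barcodes, against 148, 150, 77.7 and 123 CPM with GC-rich barcodes. Its log2 difference was 1.28 (SE 0.12, edgeR adjusted p = 9.22e-07), higher in 4 of 4 brains. Actb was at 28743, 28623, 15879 and 11562 CPM with GC-poor barcodes, against 10807, 11637, 5583 and 6372 CPM with GC-rich barcodes (1.28, SE 0.11, edgeR adjusted p = 2.96e-07).

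For the other markers the log2 differences were 1.41 for Notch2, 1.25 for Rpgrip1 and 1.06 for Supt16, with edgeR adjusted p of 2.96e-07, 4.31e-06 and 3.17e-05. Ptafr, the receptor for platelet-activating factor, had the smallest p of all genes (log2 1.54) and was named after its values were seen. It was under the level filter in the comparison of clusters 1 and 4 with cluster 0. Without the block, in a fit that leaves the difference between metastatic and naive brains in the error, edgeR gave 0 of 7797 genes at the adjusted threshold, 94 higher and 8 lower at an unadjusted p under 0.05, and the marker log2 differences were 0.98 to 1.45. DESeq2 with the block gave 49 higher genes, all 5 markers among them. Sums of the same brain come from the same suspension, and their deviations from the group means correlated at 0.50 to 0.83.

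Differences between clusters 1 and 4 and cluster 0 remained within the GC-rich and within the GC-poor barcodes. Among GC-rich barcodes alone, 94 of the 98 genes were at least 1.5-fold higher in both brains, and among GC-poor barcodes alone 63 were. The direction was kept by all 98 in both settings. The 98 genes were picked from these same cells, so most could be counted on to keep it. Within the GC-poor range, composition still differed between the clusters. In metastasis 1, cells at 6 or fewer G or C were 258 of 592 in cluster 1 and 52 of 341 in cluster 0. In metastasis 2 they were 260 of 582 and 64 of 339. The log2 difference of Slc39a1 was 4.05 among GC-rich and 1.88 among GC-poor barcodes, and that of Actb was 2.64 and 1.48. Barcode composition thus went with cluster and, inside clusters 1 and 4, with depth. The part of the barcode in the cluster difference was not tested.

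Cluster 1 had lower levels than cluster 4 for most of the genes that set both apart from cluster 0. Set singly against cluster 0, cluster 1 was higher for 94 of 5120 genes (1.84%) and cluster 4 for 119 of 5162 (2.31%), and 89 and 91 of the 98 were among them. In both brains 87 of the 98 genes were highest in cluster 4, intermediate in cluster 1 and lowest in cluster 0. The last place of cluster 0 largely follows from how the 98 were picked. The share of all tested genes in this order was not counted. The median log2 difference of the 98 genes to cluster 0 was 1.09 in cluster 1 and 1.44 in cluster 4. Cluster 1 was the higher of the pair in both brains for 6 of them, Ccl5, Usp18, Irf7, Isg15, Zbp1 and Gas7.

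Of 5177 genes compared directly, 12 (0.232%) were at least 1.5-fold higher in cluster 1 than in cluster 4 in both brains and 8 (0.155%) were lower. The lower ones were Dqx1, Insig1, Actb, Abhd2, Slc39a1, Notch2, Ccdc85c and Alkbh5. Actb was at 13379 and 14316 CPM in cluster 1 and at 23090 and 25577 CPM in cluster 4, a log2 difference of -0.81 ± 0.04. Slc39a1 was at 485 and 436 CPM against 796 and 729 CPM (-0.72 ± 0.02). The levels of the 2 clusters did not overlap for either gene, which largely follows from the limit of 1.5-fold in both brains. Dqx1, at 10 and 13 CPM in cluster 1 and 27 and 23 CPM in cluster 4, rested on low counts and turned its sign in cells over 12000 UMIs.

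Of the 12 genes that were higher in cluster 1, 6 belong to a list of type I interferon genes. Interferons are cytokines that bind cell-surface receptors and, through STAT transcription factors, switch on antiviral genes. Of 12 type I interferon genes that passed the level filter, 6 were at least 1.5-fold higher in cluster 1 and 0 were lower, and all 12 lay above 0 in both brains, with a median log2 difference over the passing genes of 0.63 and 0.81. The background for a higher call was 0.232% of genes.

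Irf7, the transcription factor that amplifies interferon production, was at 39 and 61 CPM in cluster 1 and 12 and 29 CPM in cluster 4 (log2 difference 1.18 ± 0.30), and at 14 and 25 CPM in cluster 0. Isg15, a ubiquitin-like modifier, was at 143 and 148 CPM against 60 and 65 CPM in cluster 4 (1.15 ± 0.05), and at 60 and 72 CPM in cluster 0. Usp18, which removes Isg15 from proteins, was at 32 and 30 CPM against 11 and 14 CPM in cluster 4 (1.04 ± 0.22), and at 9 and 11 CPM in cluster 0. For these 3 genes cluster 4 was thus close to cluster 0 in CPM, and cluster 1 stood above both. Per cell, Irf7 and Usp18 were also higher in cluster 1 than in cluster 0 in both brains. Isg15 was at 1.11 and 1.15 UMIs per cell in cluster 1 and 0.837 and 1.17 in cluster 0, so its brains went opposite ways. The levels of these genes in cluster 3, which was as deep as cluster 0, were not compared here.

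Oasl2 and Rtp4, both interferon-induced, had log2 differences of 0.83 and 0.89 between cluster 1 and cluster 4. Ly6a, a membrane glycoprotein, was at 50 and 75 CPM in cluster 1 and 25 and 30 CPM in cluster 4. The chemokine gene Ccl7 was at 31 and 36 CPM against 17 and 9 CPM. Gpnmb, a transmembrane glycoprotein that is not on the interferon list, was at 26.6 and 16.5 CPM in cluster 1 and 14.4 and 6.82 CPM in cluster 4 (log2 difference 0.78 ± 0.12), beside 23.8 and 16.4 CPM in cluster 0. Against cluster 0, cluster 1 alone was higher for 8 of 12 passing interferon genes, with 1.84% of all tested genes higher. Cluster 4 was higher for 0 of 7, with 2.31% of all genes higher, a share at which 0 of 7 is no result about the list. Of MHC class I genes, 11 of 12 lay above 0 in cluster 1 against cluster 4 in both brains, with a median log2 difference of 0.41. Such a count was not particular to them: 11 of 11 endoplasmic reticulum stress genes (median 0.14) and 17 of 20 glycolysis and hypoxia genes (0.16) did too. Of 12 mitochondrially encoded genes, 1 did. The share of all genes above 0 in both brains was not counted.

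The interferon genes did not pass the test of barcode composition. In the cells of other clusters, Irf7, Isg15, Usp18 and Zbp1 had log2 differences of 0.41, 0.36, 0.04 and 0.36 between GC-poor and GC-rich barcodes, with edgeR adjusted p of 0.341, 0.331, 1.00 and 0.375. These are the 4 members of the interferon list among the 98 genes, and a p that misses the threshold does not show that they did not differ.

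Surface antibody tags were read from a separate library and were tested over brains. All 6 tags were lower per cell in clusters 1 and 4 than in cluster 0 in both brains. CD11b, a myeloid integrin, averaged 2.12 and 2.61 tags per cell in clusters 1 and 4 against 2.99 and 3.44 in cluster 0. CD45 averaged 1.64 and 1.89 against 1.94 and 2.29, and CD3e, of the T cell receptor complex, 0.0907 and 0.103 against 0.207 and 0.194.

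The log2 differences ran from -1.05 ± 0.19 for CD3e to -0.26 ± 0.02 for CD45 (SD, n = 2 brains). Exact permutation over brains, two-sided, gave p = 0.3333 for each of the 6, the smallest that 2 brains against 2 allow, and adjusted p = 0.5 over 12 tests, so none passed. Within the shared depth range the means of CD11b, CD25, CD45 and CD86 were higher in clusters 1 and 4, by 0.16, 0.13, 0.31 and 0.08 on the log2 scale. CD3e and CD4 kept their direction there, at -0.11 and -0.05. The part of depth in the tag differences was not tested. Between clusters 1 and 4 the log2 differences lay between -0.09 and 0.16, and the values of CD11b, CD25, CD45 and CD86 overlapped (exact permutation p = 1 each).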

How the data were processed

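Per the submitters' processing notes, Cell Ranger 3.0.2, Seurat 3.0.1 and the build mm10 were used, with no settings named. The deposited RNA and tag tables hold raw counts of UMIs and tags. The deposited cell table gives the authors' percent of mitochondrial UMIs, a hashing margin score and cluster numbers. All 12421 barcodes are distinct, each with a single-brain call. No doublet caller was run and no cell was removed.

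UMIs were summed per cluster and brain. Sums ranged from 2933192 (cluster 4, metastasis 2) to 24548961 (cluster 0, metastasis 2). Genes at 20 CPM or more on either side were compared as log2 of CPM plus 5, and were named as higher or lower at 1.5-fold in both brains. Text names the 5 markers, the 12 and 8 largest differences, the top members of each gene list and the most abundant markers of other cell types. Members and lists were chosen with earlier results of these data known. The barcode comparison was added after the data were seen, with edgeR 4.0.16 (TMM, filterByExpr; DESeq2 1.42.0 as alternative) in R 4.3.3. Its script was tested on simulated data of 7350 genes, where 82.6% of 2-fold and 100% of 4-fold changes passed. The simulated sums held no difference between brains and no mix of clusters, and genes with few counts were not changed. These rates therefore need not hold for the real sums. Tags used an exact permutation test (scipy 1.17.1).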

Additional observations from a re-analysis of the deposited data

Results flagged for a closer look

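Under the same contrast of barcodes, cluster 1 and cluster 0 moved in opposite directions for 3 of the 5 markers. With GC-poor minus GC-rich barcodes, Slc39a1 had a mean log2 difference of -0.38 in cluster 1 and 1.92 in cluster 0. Rpgrip1 had -0.26 in cluster 1 and 1.89 in cluster 0, and Supt16 had -0.18 in cluster 1 and 1.06 in cluster 0. Both brains of a cluster went the same way in each case. Notch2 was higher with GC-poor barcodes in both clusters, by 0.24 and 0.20 in cluster 1. Actb in cluster 1 was at -0.17 in metastasis 1 and 0.05 in metastasis 2. The difference between the clusters was not tested.

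In the naive brains, 34 of 887 cells were placed in clusters 1 and 4. Their Krt8 level was 528 CPM, against 111 CPM in the naive cells of clusters 2 and 6 to 12. Their Actb level was 21612 CPM, against 16211 and 16811 CPM in the same clusters of metastasis 1 and metastasis 2. The median count of their own hashing tag was 11.5, against 39 in naive cells of clusters 2 and 6 to 12. Whether these cells carry a wrongly assigned hashing tag was not tested.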

How the results depend on the processing

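Of 100 recomputed counts over genes and tags, 73 stayed within 1.5 times or at 0. Of these, 18 are the count of genes lower than in cluster 0, which stayed at 0. The 4 tag counts of each comparison could only be 0, since 2 brains against 2 cannot reach the threshold. Genes higher in clusters 1 and 4 than in cluster 0 (98) became 33 with a filter of 100 CPM, 60 at 2-fold and 64 in GC-poor barcodes, a setting added after the data were seen; without a brain they were 104 and 113. Genes lower (0) were 1 (Adm) for cluster 4 alone. Genes higher in cluster 1 than in cluster 4 (12) became 20 with a filter of 5 CPM, 2 with 100 CPM, 4 with a pseudocount of 20 CPM, 1 at 2-fold, 59 in GC-rich barcodes and 20 over 12000 UMIs; without a brain they were 20 and 42. Genes lower (8) became 4, 0, 13 (cells with few cell cycle UMIs), 17 (GC-rich), 17 (GC-poor), and 23 and 29 without a brain. Leaving out cells with over 2 UMIs of other types gave 193 higher and 124 lower on 44 to 193 cells a side, and left 1 and 4 cells of cluster 0, so no value against cluster 0 is given. Dqx1 reversed to 0.56 there and to 0.34 over 12000 UMIs, and Ccdc85c to 0.24 there.

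The 77 genes of the barcode test were 49 with DESeq2, 0 with no replicate block and 45 to 83 without a brain; of the 98 genes, 59 became 0 with no replicate block and 39 to 59 without a brain. With 4 brains the block takes up the metastatic and naive difference. In tags the replicate block left 0 of 6 past the threshold (sign flips of 2 pairs, smallest p 0.5). As a share of the cell's tags, CD11b and CD45 reversed to 0.0064 and 0.19 against cluster 0. In the shared depth range they were 0.16 and 0.31, CD25 0.13 and CD86 0.080, and CD3e and CD45 between clusters 1 and 4 were -0.026 and 0.17. Between those clusters the values without a brain ran from -0.043 to 0.31 for CD11b, -0.26 to 0.090 for CD25, -0.39 to 0.20 for CD45 and -0.13 to 0.31 for CD86. The cause of these moves was not tested. Genes under 20 CPM are limited by depth.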
